A study of Homo sapiens with 16 samples.

Results

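The response of PABPC1-bound RNA to sodium arsenite was compared between cells with wild-type (WT) and K512R PABPC1, as the peak lists are named, over 30472 regions found in at least 2 of 8 deposited peak lists. These were the regions tested among 36802 in all, which were made by joining peaks of the 8 lists that overlapped by 1 bp or more on the same strand. The names of the lists give 4 conditions with 2 lists each, which are WT, WT-AS, K512R and K512R-AS, where AS stands for arsenite. A positive difference means that a region rose more, or fell less, from K512R to K512R-AS than from WT to WT-AS.

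The samples came from the established human lung cancer line H1299, with stable expression of Myc-tagged PABPC1, either WT or K512R (a lysine replaced by arginine), and the cells were given 500 µM sodium arsenite or none. RNA was recovered with an anti-Myc antibody (RNA immunoprecipitation, IP) or kept as input, rRNA was removed, and the RNA was sequenced. The series has 16 samples, of which 8 had a list and are used here, and nothing in the labels says whether replicates were separate cultures. The labels do not say that the cells' own PABPC1 was removed, and its level and that of the tagged protein were not analysed here. As in any bulk sample, fewer cells that hold an RNA and less of it per cell cannot be told apart.

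Sample titles conflict with the names of the lists for 6 of the 8. By title, the lists named WT are untreated WT IP, those named WT-AS are untreated WT input, those named K512R are WT IP with arsenite, and those named K512R-AS are WT input with arsenite. The 8 samples whose titles say K512R enter no comparison here. Both readings give the same pairs of lists, so each value below is the same under either. By the names, the difference asks whether K512R changes the arsenite response. By the titles it asks whether arsenite changes the contrast of input with IP in WT cells, and K512R is not involved. Which reading holds was not settled, and conditions are called by the names of the lists.

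PABPC1 coats the poly(A) tails of mRNAs in the cytoplasm and helps to start translation and to set how long an mRNA lasts. Arsenite is an oxidative stressor that blocks translation initiation, and the stalled mRNAs gather with PABPC1 and other RNA-binding proteins in stress granules. SUMO proteins are small proteins that are joined to lysines of other proteins, and an arginine in place of a lysine cannot take them up. The title of the series names SUMO modification of PABPC1 and mRNAs in stress granules.

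For every region, the score of its best peak was turned into a percentile within the list, with 0 where the list had no peak. The unit of the score is not stated, so percentiles rank peaks within a list and do not measure an amount of RNA. The lists held 19953 to 25111 peaks, and the read depth behind them is unknown. Between 8.17% and 11.0% of the peaks of a list scored 3100 or more, and a peak at that tied score stood at the 94.3 to 95.7 percentile. The responses are WT-AS minus WT and K512R-AS minus K512R, in percentile points, from the mean of each pair, and the difference is the second minus the first. The lists give no gene names, and the gene table at hand is for another genome build than the hg19 of the lists, so regions are given by hg19 position and were not assigned to genes, exons or untranslated regions. Markers of H1299 cells were therefore not checked.

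Between list names with and without arsenite, a large part of the regions differed, and many of them in both WT and K512R. In a limma fit of the percentiles over all 30472 regions (Benjamini-Hochberg adjusted p threshold of 0.05), WT-AS and WT differed in 10427 regions (34.2%), with WT-AS lower in 5975 (19.6%) and higher in 4452 (14.6%). K512R-AS and K512R differed in 11394 regions (37.4%), with K512R-AS lower in 7722 (25.3%) and higher in 3672 (12.1%). The regions lower in both numbered 4228, which was 70.8% of those lower by WT names and 54.8% of those lower by K512R names. The regions higher in both numbered 2427, which was 54.5% and 66.1% of the 2 sets. Of all regions, both responses were negative in 13967 and positive in 8133. The WT response was negative and the K512R response positive in 2464, with the reverse in 3026. These counts take signs of any size. A region at the tied top score in all 8 lists has responses of -0.037 and -1.10 and so counts as negative in both.

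Across the 30472 regions, the responses, which share no list, had a Pearson r of 0.680 and a Spearman rho of 0.664. These describe the lists, since regions are not independent and all 8 lists rank the same kind of peak. A response made from 1 list per condition correlated with its replicate response at 0.694 to 0.710 within WT (2 ways of taking the lists) and 0.713 to 0.728 within K512R. Between WT and K512R the 16 such correlations ran from 0.562 to 0.604, all below the lowest value within a pair of conditions. The slope of the K512R response on the WT response was 0.709, and that of the WT response on the K512R response 0.651.

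**Figure D1:**
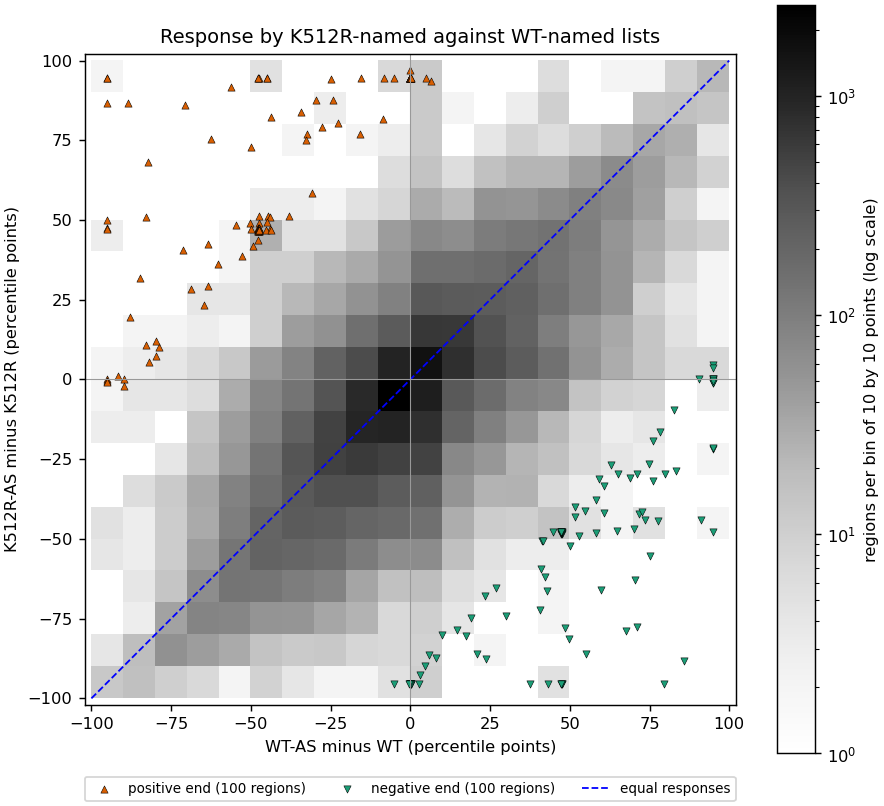
Response by the K512R-named lists (y axis) against that by the WT-named lists (x axis), in percentile points, over 30472 regions counted in squares of 10 by 10 points with a log grey scale. Most regions have responses of the same sign (lower left and upper right, with the dashed line marking equal responses), and the 100 regions of the positive end (triangles pointing up) and of the negative end (triangles pointing down) lie at the upper left and the lower right, at differences of 87.0 and above and of -89.9 and below.

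The difference of the responses was above the replicate spread in part of the regions. Its SD over regions was 23.0 points, against 16.7 points from the spread within the pairs alone. The median was -3.09 points, and the middle part of the regions, from the 25th to the 75th percentile, ran from -16.2 to 6.83. A difference of 50 points or more was seen in 426 regions upward (1.40%) and 830 downward (2.72%). The fit called 1846 regions (6.06%), with 539 higher (1.77%) and 1307 lower (4.29%). Percentiles are bounded and hold many zeros, and where the lists of every pair happen to agree the estimated spread is near 0, so these p-values are approximate. Over regions in at least 4 lists, 449 were called, with 160 higher and 289 lower. With the spread taken from regions of like level only, 737 regions were called, of which 345 were among the 1846. Without the K512R list 1 the count was 3238 and without the K512R list 2 it was 3182, with the lone list assumed to vary like the other pairs.

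The share of lower calls was smaller at equal list length. The K512R lists were the longest, with 24183 and 25111 peaks, and K512R-AS list 1 the shortest, with 19953. With all lists cut to the 19953 peaks of highest score, 734 regions were called higher and 860 lower. The share of higher among the called regions went from 29.2% to 46.0%, and the median difference from -3.09 to -0.24 points. At equal length the arsenite responses had like counts, with 5243 lower and 4841 higher by WT names and 5257 lower and 4943 higher by K512R names. Of the 1846 regions, 1240 were called at equal length too.

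K512R and WT differed in 1328 regions (4.36%), with K512R higher in 1067 (3.5%) and lower in 261 (0.857%). At equal list length it was 705 regions, with 429 higher and 276 lower, and over regions in at least 4 lists 209, with 139 higher and 70 lower. Without K512R list 1 or 2 the count was 2737 or 2629, without WT-AS list 1 or 2 it was 872 each, and without K512R-AS list 1 or 2 it was 833 or 834. K512R-AS and WT-AS differed in 1553 regions (5.1%), with K512R-AS higher in 696 (2.28%) and lower in 857 (2.81%), and over regions in at least 4 lists in 799. These counts share lists with the responses and with each other.

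Among the 1307 regions called lower, 674 had only the K512R response called and 387 only the WT response. Both were called in the same direction in 163, and in opposite directions in 83. Among the 539 called higher, 210 had only the K512R response called, 213 only the WT response, 69 both in the same direction and 47 both in opposite directions. In 341 of the regions called higher (63.3%) and 627 of those called lower (48.0%) at least 1 condition had a mean percentile of 50 or more, against 51.3% of all tested regions. A large difference needs a high percentile in some condition, so these shares are partly fixed by the choice.

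Regions over 2000 bp stood lower in this difference. In these 818 regions the median WT response was -15.3 points and the median K512R response -33.1, with a median difference of -11.1. Of these regions, 72 (8.80%) were called lower and 31 (3.79%) higher, against 4.29% and 1.77% of all regions. In the 1929 regions of 1001 to 2000 bp the median difference was -4.72, with 4.82% called lower and 1.61% higher. In the 11397 regions of 201 to 1000 bp the median difference was -1.21, and in the 16328 of up to 200 bp it was -3.94. At equal list length the medians were -8.37 over 2000 bp, -1.61 from 1001 to 2000 bp, 0.82 from 201 to 1000 bp and -0.26 up to 200 bp. Chromosomes differed little, with median differences from -1.48 on chromosome 5 to -6.42 on chromosome 22, leaving out chromosome Y with its 55 regions.

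The 2 ends of the difference were described next, as the 100 regions with the highest and the 100 with the lowest values. They were chosen by those values, so they are given with no test. The positive end ran from 189.6 down to 87.0 points and the negative end from -175 to -89.9. The first positive region outside the border stood at 86.6 and the first negative one at -89.86, so the border falls within a continuum. In the positive end the mean percentiles were 68.6 in WT, 22.3 in WT-AS, 16.1 in K512R and 76.6 in K512R-AS. In the negative end they were 22.7, 72.6, 68.5 and 11.8. These means hide different members. In 28 regions of each end 1 of the responses was under 10 points in size, which was the WT response in 20 positive and 18 negative regions and the K512R response in 8 and 10. In the other 72 of each end the responses were opposite and both at least 10 points. Counting any size, the responses had opposite signs in 83 of the 100 positive and 87 of the 100 negative regions, against 18.0% of all tested regions, which the choice of the ends favours.

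Replicates disagreed in many of these regions. At least 1 pair had a peak in just 1 of its 2 lists in 66 of the positive and 68 of the negative regions, against 43.5% of all tested regions. The median error of the difference, from the spread within pairs, was 42.5 points in the positive end and 32.8 in the negative end, against 9.72 over all tested regions. The commonest patterns of such splits were peaks in 2, 1, 1 and 2 lists (WT, WT-AS, K512R, K512R-AS) in 13 positive regions and in 1, 2, 2 and 0 lists in 14 negative ones. A further 8 positive regions had a peak in 1 WT list and 1 K512R-AS list and in no other, so each of these rests on 2 peaks in all. The worst case takes from each pair the list that makes the difference smallest. It kept the sign in 70 positive and 93 negative regions, where 44.4% of all tested regions did so. The fit called 37 of the positive and 43 of the negative regions, beside 6.06% of all, and nothing is read from this, since the same values chose them.

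**Figure D2:**
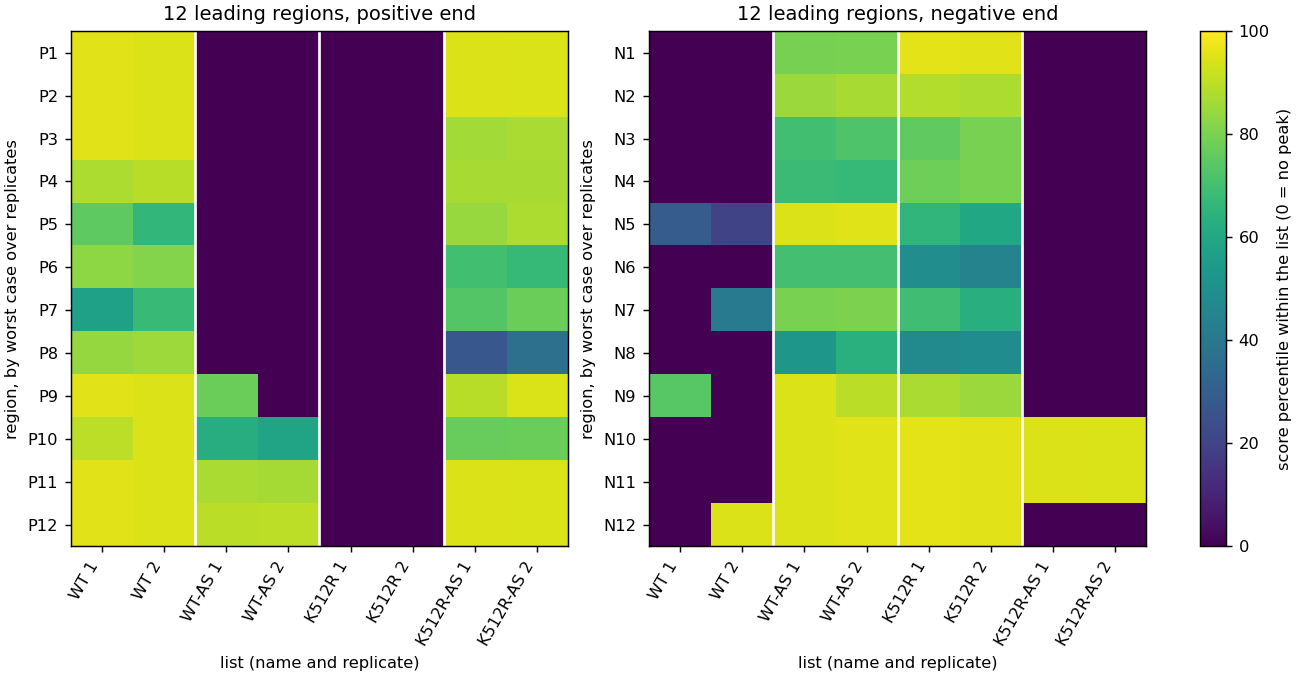
Score percentile within each list (colour, 0 where there was no peak) of the 12 regions of each end with the largest worst case, P1 to P12 for the positive and N1 to N12 for the negative end, over the 8 lists. The regions P1 to P8 have peaks in all WT and K512R-AS lists and in none of the WT-AS and K512R lists, and N1 to N4 have the reverse pattern.

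In 8 of the 12 leading regions of the positive end, all lists of WT and K512R-AS had a peak and no list of WT-AS and K512R did. The first was on chromosome 2 (hg19, chr2:27294194-27294517, minus strand, 324 bp), at 95.3 and 94.8 in WT, 0 and 0 in WT-AS, 0 and 0 in K512R, and 94.7 and 94.3 in K512R-AS. Its difference was 189.6 ± 0.342 points (error from the spread within pairs, 2 lists each), near the largest the scale allows. The choice of leading regions by worst case favours small errors. This error only reflects where the tied top score stood in each list. The same percentiles in all 8 lists were found at chr12:42719726-42719932 (minus strand, 207 bp). Each of these is a peak at the tied top score that is either present or wholly missing, with no value between. Regions of a strand within 5000 bp were also merged, taking the best peak of each list. The locus on chromosome 2 then kept 189.6 points, and that on chromosome 12 had -1.07. Here and below, a locus with no other region in range keeps its difference whatever the merging, so a kept value is no support. A region at the tied top score in all 8 lists has a difference of -1.07. The merged locus on chromosome 12 holds such regions, and they set its value.

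A region at chr9:138837735-138837843 (minus strand, 109 bp) stood at 95.3 and 94.8 in WT and at 86.2 and 87.5 in K512R-AS, and at 0 in the other 4 lists. At chr12:70637494-70638102 (plus strand, 609 bp) WT had 87.6 and 89.2 and K512R-AS 86.8 and 86.9, again with 0 in the other 4. At chr20:17585200-17585276 (plus strand, 77 bp) the values were 75.4 and 66.2 in WT and 84.6 and 87.6 in K512R-AS. At chr12:58166383-58166684 (plus strand, 302 bp) they were 57.3 and 67.7 in WT and 73.2 and 77.7 in K512R-AS. At chr19:10790492-10790603 (plus strand, 112 bp) WT was much the higher, at 84.1 and 85.2 against 27.0 and 36.9 in K512R-AS. In each of them the other 4 lists were at 0, a pattern that the choice by the largest worst case favours. Merged within 5000 bp, the locus of chr20:17585200-17585276 had -1.07 points and that of chr19:10790492-10790603 had 33.4. The others kept their differences. Over the whole positive end, 0 of 366 missing peaks had a peak of the same list on the opposite strand at that place, and in the negative end 5 of 359.

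Other leading regions of the positive end lacked a peak in the K512R lists alone. At chr14:105261821-105262080 (minus strand, 260 bp) WT had 90.2 and 94.8, WT-AS 62.1 and 58.2, K512R 0 and 0, and K512R-AS 76.7 and 77.4. At chr15:56735836-56736052 (minus strand, 217 bp) WT had 95.3 and 94.8, WT-AS 89.7 and 90.2, and K512R-AS 94.7 and 94.3, while both K512R lists had no peak. Their differences of 109.4 ± 3.01 and 99.6 ± 0.412 points therefore rest on the untreated K512R lists. Merged with neighbours within 5000 bp, the loci had differences of 0.68 and 1.97 points. The presence pattern of 2, 2, 0 and 2 lists, in the same order of conditions, was found in 11 regions of the positive end and in 121 of all tested regions.

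The negative end was led by regions that had peaks in WT-AS and K512R. At chr11:134113013-134113188 (plus strand, 176 bp) WT had 0 and 0, WT-AS 79.4 and 79.7, K512R 95.7 and 95.5, and K512R-AS 0 and 0, a difference of -175 ± 0.215 points. At chr12:122439403-122439504 (plus strand, 102 bp) WT-AS had 84.9 and 86.8 and K512R 88.5 and 87.8. At chr1:231003926-231004302 (minus strand, 377 bp) WT-AS had 69.6 and 72.5 and K512R 75.6 and 79.7. In both, all WT and K512R-AS lists were at 0. A wider region at chr2:73452924-73454355 (plus strand, 1432 bp) had 69.97 and 70.3 in WT-AS and 49.0 and 44.8 in K512R, and 0 in the other 4 lists. Merged within 5000 bp, the locus on chromosome 11 had -11.0 points and that on chromosome 2 had -50.4. Those on chromosomes 12 and 1 kept their differences.

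At chr6:135375787-135376036 (minus strand, 250 bp) the replicates of WT differed, at 0 and 40.8, and WT-AS had 79.9 and 80.3, K512R 69.2 and 62.7 and K512R-AS 0 and 0. The widest leading region, chr16:2811562-2818262 (plus strand, 6701 bp), was also split in WT, at 0 and 94.8. It stood at 94.8 and 95.3 in WT-AS, 95.7 and 95.5 in K512R and 0 and 0 in K512R-AS, so its difference of -143.3 carried an error of 47.4 points. Both WT lists, and no other, lacked the regions chr9:103204188-103204638 (plus strand, 451 bp) and chr20:3026675-3026926 (plus strand, 252 bp), which stood between 94.3 and 95.7 in all the others. Merged within 5000 bp, the locus on chromosome 9 kept -96.1 points, and that on chromosome 20 had -1.07. The other 3 of the 12 lay on chromosome 8, with differences of -133.1, -106.4 and -141.3 points. Merged within 5000 bp, their loci had -133.1, -35.3 and -56.6 points in the same order. The regions at -106.4 and -141.3 had opposite neighbours 128 and 92 bp away, at 71.1 and 84.7 points.

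The whole ends held 8 positive regions with the full pattern of 2, 0, 0 and 2 lists and 7 negative ones with 0, 2, 2 and 0. Of all tested regions these patterns had 24 and 66, so most of them had weaker peaks and lay outside the ends. In the positive end the peak was missing from both K512R lists in 66 regions and from both WT-AS lists in 55. In the negative end it was missing from both K512R-AS lists in 73 and from both WT lists in 50. The ends lay on 20 chromosomes each, with 12 positive and 13 negative regions on chromosome 19, which held 6.59% of all tested regions. Median widths were 318 and 302 bp, against 185 bp over all tested regions, and 16 of the negative but 3 of the positive regions were over 1000 bp, where all tested regions had 9.01%.

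Many regions at the ends had a neighbour that did the opposite. Within 1000 bp on the same strand, 20 of the 100 positive and 18 of the 100 negative regions had a neighbour whose difference was 50 points or more the other way, against 0.630% of all tested regions. Regions of the ends also more often had any neighbour within that distance, in 41 and 31 of 100 against 14.8%. Among regions with a neighbour, the shares with an opposite one were 48.8% and 58.1%, against 4.25%. Within 5000 bp an opposite neighbour was found for 26 and 23, against 1.69%, and among regions with a neighbour for 36.6% and 33.3%, against 2.79%. A neighbour that moved the same way by as much was found within 5000 bp in 0 positive and 2 negative regions, against 2.48% of all tested regions. The ends were chosen for large values, so these shares are a description, and no test was made.

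**Figure D3:**
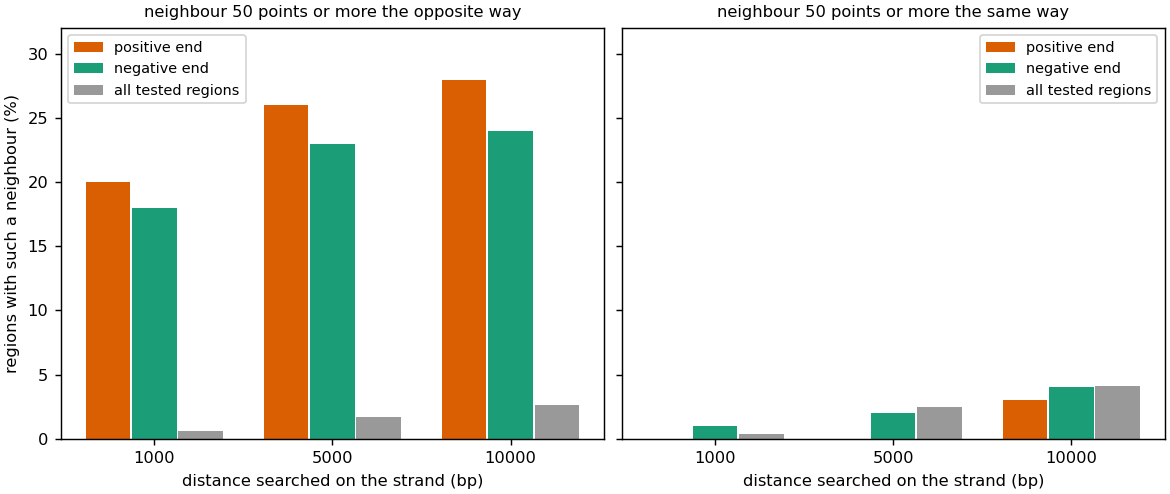
Share of regions (%) that had a neighbour on the same strand within 1000, 5000 or 10000 bp whose difference was 50 points or more in the opposite direction (left) or in the same direction (right), for the positive end, the negative end (100 regions each) and all 30472 tested regions. Opposite neighbours reach 28.0% and 24.0% at the ends against 2.64% of all tested regions, while same-way neighbours stay at or below 4.14% in each set.

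The clearest case was on the minus strand of chromosome 9, where both partners were among the leading regions. The region chr9:34665610-34666046 (437 bp) stood at 82.8 and 81.5 in WT, 0 and 0 in WT-AS, 0 and 0 in K512R, and 69.6 and 67.0 in K512R-AS. Its neighbour chr9:34664632-34665187 (556 bp), 422 bp away, stood at 0 and 0 in WT, 68.1 and 67.1 in WT-AS, 77.7 and 79.98 in K512R, and 0 and 0 in K512R-AS. Every list had exactly 1 of the 2 peaks. The differences were 150.5 ± 1.45 and -146.5 ± 1.24 points, and with the 2 regions merged, taking the better peak of each list, 4.05 points were left.

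On chromosome 22, chr22:38712670-38712978 (minus strand, 309 bp) had 95.3 and 94.8 in WT, 77.5 and 0 in WT-AS, 0 and 0 in K512R and 89.3 and 94.3 in K512R-AS. Its neighbour chr22:38713165-38713444 (280 bp), 186 bp away, had 0 and 0, 0 and 86.3, 95.7 and 95.5, and 0 and 0 in the same order. Here the replicates of WT-AS themselves parted, each with the other peak. On chromosome 20, chr20:44034861-44035250 (plus strand, 390 bp) stood at 95.3 and 94.8 in WT, 87.3 and 86.4 in WT-AS, 0 and 0 in K512R, and 94.7 and 94.3 in K512R-AS. Its neighbour chr20:44035847-44036419 (573 bp), 596 bp away, had a peak in the K512R lists alone, at 95.7 and 95.5.

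In all, 49 of the 200 regions had such an opposite neighbour within 5000 bp, in 31 distinct pairs, at a median gap of 416 bp. Counted over the 31 pairs and the 8 lists, exactly 1 of the partners had a peak in 215 of 248 cases (86.7%) and both in 19 (7.66%). In 18 of the 31 pairs, each of the 8 lists had exactly 1 of the partners. Over all 14417 pairs of tested regions within 5000 bp, exactly 1 had a peak in 27.4% of the cases, and 0.853% of the pairs had exactly 1 in every list. The 31 pairs were chosen for opposite differences, which favours such patterns. When regions within 1000 bp were merged, 63 positive and 74 negative regions lay in a locus that kept a difference of 50 points or more in size. Within 5000 bp it was 36 and 43, and the fit called 792 of 19423 loci. However, 59 positive and 69 negative regions had no other region to merge with within 1000 bp. Within 5000 bp this was so for 29 and 31. Those regions keep their difference whatever the merging, so most of the kept differences were fixed in advance. A merged locus takes its strongest peak in each list, so a strong unchanged neighbour also lowers the difference.

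The peaks carry running numbers that rise along each chromosome without exception, no number is used more than 1 time in a list, and the numbering has gaps. The sources used here do not say what the unlisted numbers stand for. Where a list had no peak in a region of the positive end, an unlisted number fell between its flanking peaks in 266 of 365 cases (72.9%). In the negative end it was 260 of 359 (72.4%), and over all tested regions 84.2% of 74504 cases. In the remaining cases the flanking peaks had consecutive numbers, so the numbering leaves no room for a further call between them.

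Runs of neighbouring regions that moved together were looked for as the counterpart of the opposite neighbours. Regions of a strand no more than 10000 bp apart were put in a run, which gave 2051 runs with at least 4 tested regions. The mean difference of a run had a median of -5.87 and an SD of 12.1 points. All regions of a run were below 0 in 335 runs and at or above 0 in 53. A region at the tied top score in every list has a difference of -1.07 from the tie positions alone. Such a region counts as below 0 and keeps its run out of the 53, so these counts of signs favour the 335. At equal list length there were 1840 runs, of which 188 were below 0 throughout and 96 at or above 0, with a median mean of -1.64. The runs with the lowest and highest means were described, with no test, since the values chose them.

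The run at chr5:154170205-154183305 (plus strand, 5 regions) lost all of its peaks by K512R names. Its mean percentile was 38.4 and 26.1 in WT, 3.44 and 0 in WT-AS, 82.0 and 83.2 in K512R, and 0 and 0 in K512R-AS. The K512R lists had a peak in 5 of 5 regions and the K512R-AS lists in 0 of 5, while WT had peaks in 4 and 3, and WT-AS in 1 and 0. Thus the run was lower in the arsenite-named lists by both names, and the mean difference of -52.1 points came with the higher untreated level in K512R. The arsenite-named lists were at or near the floor of 0, so the untreated level bounded the size of each fall. At chr1:183511211-183520056 (plus strand, 4 regions) the means were 49.4 and 54.6 in WT, 26.6 and 24.8 in WT-AS, 70.7 and 73.5 in K512R, and 0 and 0 in K512R-AS. There the WT-AS lists still had 2 and 3 of the 4 peaks.

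A run at chr22:19338881-19349454 (minus strand, 5 regions) had peaks in 5 of 5 regions in each K512R list, at a mean of 46.1 and 43.7. WT had 2 and 0 peaks at a mean of 5.59 and 0, and all 4 arsenite-named lists had none. Its mean difference of -42.1 points thus came from the untreated K512R lists, and it was -30.6 at equal list length. At chr2:102440390-102460773 (plus strand, 7 regions) the mean was 48.8 and 53.9 in WT, 22.1 and 26.5 in WT-AS, 67.3 and 73.2 in K512R, and 3.40 and 1.98 in K512R-AS. It fell by 27.1 points by WT names and by 67.5 by K512R names, the same way in both.

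Other runs with low means stood higher in WT-AS than in WT. At chr11:18415936-18429761 (plus strand, 4 regions) the mean was 36.1 and 25.9 in WT and 78.3 and 89.5 in WT-AS, but 49.8 and 48.2 in K512R and 47.4 and 70.8 in K512R-AS. In its second region WT had 29.2 and 15.2, WT-AS 94.8 and 95.3, and K512R 55.3 and 52.4, whereas the K512R-AS lists parted at 0 and 94.3. Its last region, chr11:18428664-18429761, had a peak in the WT-AS lists alone, at 29.0 and 72.4. At chr1:205689629-205698749 (minus strand, 4 regions) WT had means of 7.83 and 8.87, WT-AS 76.2 and 75.9, K512R 9.56 and 13.5, and K512R-AS 19.1 and 33.6. The response there was 67.7 points by WT names and 14.8 by K512R names, with no overlap between WT-AS and the other lists. The choice of the run by its low mean favours such a separation. In its last region WT-AS had 70.8 and 71.3, against 63.8 in K512R-AS list 2. At chr2:171812946-171823643 (plus strand, 4 regions) the responses were 45.7 points by WT names and 1.32 by K512R names.

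A mean of 25 points or more was found in 14 runs and of -25 or less in 140, and at equal list length in 26 and 79. The highest, at chr12:42705888-42719932 (minus strand), had a mean of 48.7 points over 4 regions. Of these, 1 was the leading region at 42719726 and 2 were below 0, both at the -1.07 of a tied top score in every list. At chr12:14656597-14664645 (minus strand, 4 regions) all differences were above 0, from 23.3 to 59.0. There the K512R-AS lists had all 4 peaks, at means of 62.8 and 52.4, WT had none, WT-AS had 1 and 2, and K512R had 0 and 1. At chr5:167988398-167996003 (minus strand, 4 regions) the mean was 85.9 and 88.2 in WT, 36.9 and 20.3 in WT-AS, 89.9 and 88.9 in K512R, and 65.6 and 64.7 in K512R-AS. It fell by 58.4 points by WT names and by 24.2 by K512R names, and all 4 regions had a positive difference.

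**Figure D4:**
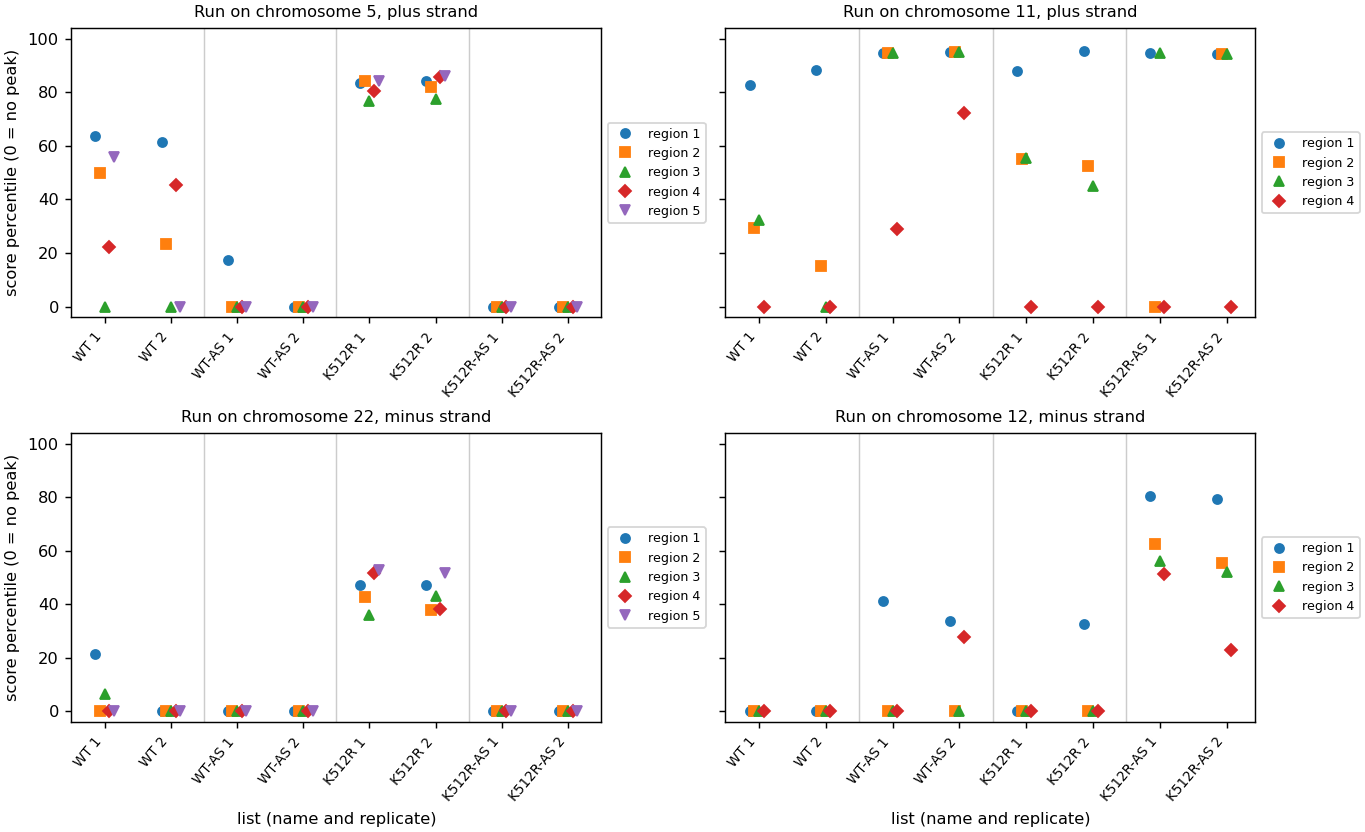
Score percentile (0 where there was no peak) of each region of 4 runs, by list, with regions numbered along the chromosome. On chromosomes 5 and 22 the K512R lists alone have peaks in all 5 regions, on chromosome 11 the WT-AS lists alone have peaks in all 4 regions, and on chromosome 12 the K512R-AS lists alone have peaks in all 4.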

How the data were processed

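The authors deposited 1 list of peaks per sample with position, strand and a score per peak, whose unit is not stated. The submitters' processing notes name cutadapt 1.9.3, HISAT2 2.0.4 and hg19, and peak names begin with MACS; the sources used here do not give its control, threshold or strand rule. Coordinates are hg19, counted from 1. Percentiles used mean ranks for ties and the best peak of a region. Contrasts of pair means were fitted with limma 3.58.1 (trended variance, 4 residual degrees of freedom, Benjamini-Hochberg over 30472 regions) in R 4.3.3, with Python 3.11.15 for the rest. The code was tested on simulated data. No exact permutation test fits a difference of responses with 2 lists a group. Named regions are, within the 100 of each end, the 12 with the largest worst case; the 2 regions each side of the border are given by value; runs and partners of opposite neighbours were named after their values were seen. The comparison, regions and alternatives were chosen with earlier results of these data known. Replicate numbers did not pair the lists (correlation of deviations 0.031 to 0.060 over 6 pairs of conditions), so no block was used. The fixed gene lists were not evaluated, since no annotation of the lists' build was used here.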

Additional observations from a re-analysis of the deposited data

Results flagged for a closer look

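The arsenite responses by WT names and by K512R names differed in 1846 regions by the limma test of the difference itself. The count was 449 over regions in at least 4 lists and 737 with the spread from regions of like level, 345 of them among the 1846. In 47 of them the response was called lower by WT names and higher by K512R names, and in 83 the reverse. Under the sample titles the same counts compare the input against IP contrast with and without arsenite.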

How the results depend on the processing

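The count of 1846 regions stayed within 1.5 times under 9 other settings, from 1561 with a score of at least 50 to 2164 with the highest rank for ties. A like count does not mean the same regions. Of the 1846, 916 (49.6%) were called with a score of at least 50 and 1823 (98.8%) with the highest rank for ties. It was 449 over regions in at least 4 lists, 792 over regions merged within 5000 bp, 737 with the spread from regions of like level and 758 with a replicate block; the last shared 745 with the 1846. Without 1 list it ran from 1652 to 3238. Presence in place of percentiles could not be tested by the fit, since most spreads are 0. The SD of 23.0 points was 21.5 without a filter, 22.6 over regions in at least 4 lists, 23.2 with the highest rank for ties, 22.8 with a score of at least 50, 21.9 and 21.0 with regions merged within 1000 and 5000 bp, 51.7 with presence, and 24.2 to 24.6 without 1 list. The slope was 0.754 over regions in at least 4 lists, 0.552 with presence and 0.649 to 0.713 without 1 list. Of the 200 regions of the ends, 37 were shared with presence, 178 to 200 under 6 other settings, and 128 to 148 without 1 list (129 and 128 without WT list 1 and 2, 132 without K512R list 1 or 2). The 24 named regions kept their sign in the 6 settings run on them. They were chosen for a large worst case, so these settings could hardly change the sign. Merging was not among the 6. Within 5000 bp it took chr12:42719726-42719932 from 189.6 to -1.07 points, while chr2:27294194-27294517 stayed at 189.6. The -1.07 is the value of a tied top score in every list, set by neighbours in the merged locus. A locus with no other region in range keeps its difference whatever the merging. Neither value therefore shows whether the difference of the region itself is stable. With regions merged within 5000 bp, WT-AS and WT differed in 6935 loci, K512R-AS and K512R in 7282, K512R and WT in 668, and K512R-AS and WT-AS in 884. Over regions in at least 4 lists the last comparisons gave 209 and 799. K512R against WT gave 705 at equal list length, 704 with a replicate block and 833 to 2737 without 1 list. The causes were not tested. The merges, the spread by level, the alternatives of the single comparisons and the runs at equal length were added after the data were seen. Depth is unknown, so it cannot be said which absences it limits.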
